A study of Homo sapiens with 6 samples.

Results

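Cells detect foreign or misplaced nucleic acid with a small set of receptors that feed into a shared signalling route. RIGI (RIG-I) and IFIH1 (MDA5) are cytosolic helicases that bind double-stranded RNA and, through caspase recruitment domains, engage the mitochondrial adaptor MAVS, while DHX58 (LGP2) is their relative that lacks those domains and modulates them. TLR3 senses double-stranded RNA in endosomes. CGAS binds cytosolic DNA and makes cyclic GMP-AMP, which activates STING1 on the endoplasmic reticulum. Both MAVS and STING1 lead to the kinase TBK1, which phosphorylates the transcription factor IRF3, and IRF7 acts beside IRF3 and is itself an interferon-inducible gene. These 10 genes were taken by exact gene name from a count table of 62754 genes, by a rule that uses no measured value, although earlier results of these data were known when they were chosen, and all 10 were among the 16931 genes with enough counts to test.

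The data were RNA-seq libraries of human dermal fibroblasts (HDFs), HFF-2 cells obtained from ATCC. The cells were transduced with a lentivirus that carried either a scramble shRNA (SCR, n = 3) or 1 shRNA against the lysosomal transcription factor TFEB (TFEB-KD, n = 3). They were then selected with puromycin. All 6 libraries came from cells stressed with tert-butyl hydroperoxide (tBHP, 40 μM for 1 h, 2 times per day) and collected at day 4, so every difference below is between knockdown and control under oxidative stress. The study's methods describe its replicates in general as biological and independent, but the labels do not say what separates these libraries, and p-values measure only the spread between them. Total counts were 55135426, 38769620 and 49992885 in SCR and 42433767, 43002866 and 51499335 in TFEB-KD. TFEB itself had estimated counts of 809, 562 and 784 in SCR and 420, 364 and 471 in TFEB-KD. The groups did not overlap, and TFEB in TFEB-KD HDFs stood at 57.6% of its SCR level (log2 fold change -0.80, SE 0.077, adjusted p = 1.37e-05, edgeR quasi-likelihood test with Benjamini-Hochberg adjustment), so the knockdown was partial at the mRNA level.

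Interferon-induced genes often carry an interferon-stimulated response element (ISRE) or a gamma-activated site (GAS) near the start of transcription, NF-kB has its own site, and TFEB binds sites built on an E-box. Promoters running from 250 bases before to 50 bases after the start site were at hand from RefSeq (GRCh38.p14) for RIGI, IFIH1, TLR3, MAVS and TBK1. They were searched on both strands for the ISRE core GAAANNGAA, the GAS core TTCNNNGAA, the E-box CACGTG and the NF-kB core GGANTTTCC. Among 35116 promoters of this length, 8.11% held the ISRE core, 7.66% the GAS core, 7.26% the E-box and 1.64% the NF-kB core. A selection of the matches, not all of them, is shown here. Each window is written 5′ to 3′ on the strand of its gene, with the match in capitals, and a match on the reverse strand appears as its reverse complement.
RIGI, NF-kB core, chr9:32526256-32526280, minus strand: atttcctcGGAAAATCCctgctttc
IFIH1, 3 overlapping ISRE cores, chr2:162318820-162318856, minus strand: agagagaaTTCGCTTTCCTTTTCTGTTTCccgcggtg
IFIH1, ISRE core, chr2:162318689-162318713, minus strand: agagaatcGAAACAGAAaccaaagt
TLR3, GAS core, chr4:186068970-186068994, plus strand: gtgaccctTTCAATGAAatccaagg
TLR3, GAS core, chr4:186069098-186069122, plus strand: ctttgcccTTCTTGGAAtgcaccaa
TBK1, E-box, chr12:64452081-64452102, plus strand: ccgtcggtCACGTGgcctccgg
The IFIH1 promoter thus held ISRE cores at 4 positions (-164, -158, -152 and -21 from the start site), 3 of which overlap, and RIGI had an NF-kB core at position -76. TLR3 also had an ISRE core across its start site, at position -3. The MAVS window held none of the 4 motifs, and the RIGI window held no ISRE core, GAS core or E-box. A match says only that the letters occur in the window.

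Among the 10 genes, the cytosolic RNA sensors and IRF7 were lower in TFEB-KD HDFs, while the DNA sensor, both adaptors, the kinase, IRF3 and TLR3 were not called. A gene was called when its adjusted p was under 0.05 and its absolute log2 fold change over 0.36, the threshold of the study. With this rule 4 of the 10 genes were called lower and 0 higher, against 15.0% of all tested genes called lower and 9.99% called higher, and the median log2 fold change of the 10 genes was -0.15 against 0.0033 for all genes. Over all genes 60.0% of the calls were lower, and 45.0% with library sizes alone, where the same 4 members were called. At an unadjusted p under 0.05 by edgeR, 4 members were lower and 1 (STING1) was higher. Over all 16931 tested genes, 7567 already had an adjusted p under 0.05 by edgeR, and at least as many pass unadjusted. Counts at an unadjusted p, here and for the lists below, are therefore not read as a result. DESeq2 called 4 members lower and 0 higher, and limma on TPM called 3 lower and 0 higher. Over the same 16931 genes DESeq2 called 2330 lower and 1528 higher, and limma on TPM 1668 and 1352. By role, 3 of 4 RNA sensors and 1 of 2 transcription factors were lower, and 0 of 4 genes among the DNA sensor, the adaptors and the kinase were called. In bulk RNA, fewer cells of a type and less RNA per cell cannot be told apart.

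**Figure D1:**
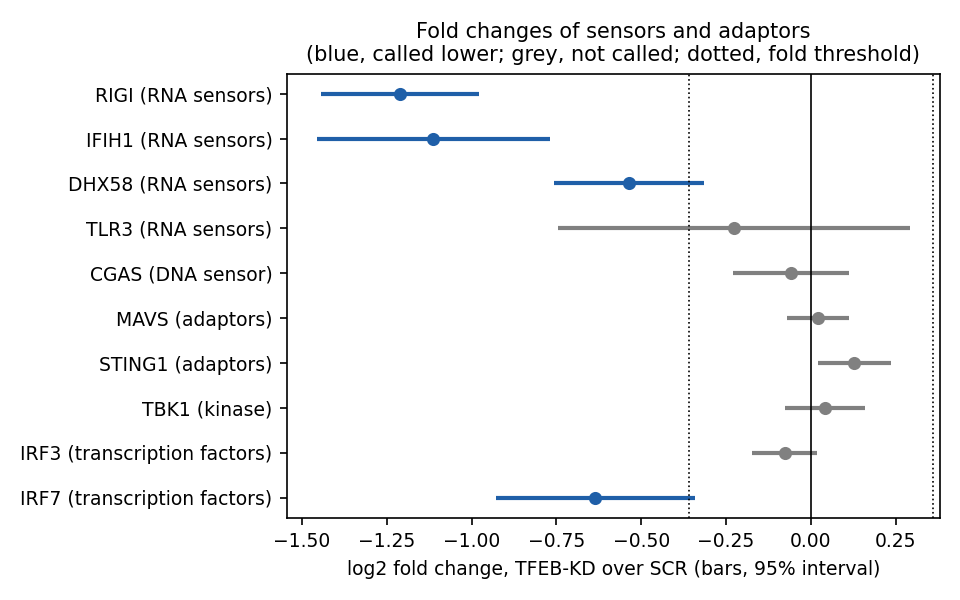
Log2 fold change of TFEB-KD over SCR (horizontal axis) for each of the 10 genes with its role, where points are edgeR estimates, bars are 95% intervals, blue marks genes called lower, grey marks genes not called and dotted lines mark the fold threshold of 0.36. RIGI (-1.21) and IFIH1 (-1.11) lie farthest to the left, DHX58 and IRF7 between them and the threshold, and the other 6 intervals include or lie next to 0.

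RIGI (ENSG00000107201.11, chr9:32455302-32526208, minus strand) had 11.2, 11.7 and 11.3 CPM in the SCR libraries and 5.27, 5.50 and 4.09 CPM in the TFEB-KD libraries (CPM, counts scaled by library size and TMM). Every TFEB-KD value was below every SCR value, and the group mean fell to 43.3% of SCR. The log2 fold change was -1.21 (SE 0.11, 95% interval -1.44 to -0.98, adjusted p = 6.09e-06, edgeR). Another gene model, ENSG00000288684, overlaps RIGI on the same strand and had 116, 20.4 and 73.9 estimated counts in SCR and 69.3, 56.2 and 146 in TFEB-KD, so the division of reads between both models is uncertain. When the counts of both were summed, an alternative chosen after seeing the data, the values were 13.4, 12.2 and 12.9 CPM in SCR and 6.87, 6.76 and 6.84 CPM in TFEB-KD. The summed value also fell (log2 fold change -0.91, SE 0.068, adjusted p = 1.97e-06, edgeR), with TFEB-KD libraries closer to each other than for RIGI alone.

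IFIH1 (ENSG00000115267.10, chr2:162267074-162318684, minus strand) was a rare transcript, with 129, 100 and 117 counts in SCR and 57, 49 and 56 in TFEB-KD. In CPM these were 2.38, 2.66 and 2.45 against 1.30, 1.10 and 1.05, again with no overlap between groups. The mean stood at 46.2% of SCR (log2 fold change -1.11, SE 0.16, 95% interval -1.46 to -0.77, adjusted p = 0.000191, edgeR). DHX58 (ENSG00000108771.13, chr17:42101404-42112714, minus strand) had 6.30, 6.08 and 6.82 CPM in SCR and 4.19, 4.89 and 4.18 CPM in TFEB-KD. Its groups did not overlap either, and its mean was 69.1% of SCR (log2 fold change -0.54, SE 0.10, 95% interval -0.76 to -0.31, adjusted p = 0.00135, edgeR). The interval of DHX58 lay above that of RIGI, but the difference between the genes was not tested. DHX58 also belongs to a gene list that the study drew up from these libraries, so its direction is not independent evidence.

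TLR3 (ENSG00000164342.14, chr4:186068911-186088073, plus strand) was the least abundant member, with 46, 40 and 39 counts in SCR and 27, 34 and 49 in TFEB-KD. The TFEB-KD counts spanned the whole range of the SCR counts. Its log2 fold change was -0.23 with a 95% interval of -0.75 to 0.29 (SE 0.23, adjusted p = 0.462, edgeR), an interval that includes both 0 and the value of DHX58.

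CGAS (ENSG00000164430.17, chr6:73413515-73452297, minus strand), the only DNA sensor among the members, had 9.63, 9.24 and 8.45 CPM in SCR and 8.81, 8.34 and 9.06 CPM in TFEB-KD, with overlapping groups. Its log2 fold change was -0.059 (SE 0.077, 95% interval -0.23 to 0.11, adjusted p = 0.566, edgeR). The mean was 9.11 ± 0.60 CPM in SCR and 8.74 ± 0.37 CPM in TFEB-KD (SD, n = 3), and the interval did not reach the fold threshold on either side. DDX43, on the opposite strand, overlaps CGAS and had 92 to 159 estimated counts per library, and whether strand was used in the counting is not stated.

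MAVS (ENSG00000088888.18, chr20:3846799-3876123, plus strand) had 162, 170 and 165 CPM in SCR and 171, 163 and 170 CPM in TFEB-KD, with interleaved groups and a log2 fold change of 0.020 (SE 0.041, 95% interval -0.071 to 0.11, adjusted p = 0.722, edgeR). STING1 (ENSG00000184584.14, chr5:139475533-139482935, minus strand) had 99.6, 102 and 111 CPM in SCR and 117, 113 and 111 CPM in TFEB-KD. The highest SCR library lay just below the lowest TFEB-KD library, and the log2 fold change of 0.13 (SE 0.049, 95% interval 0.020 to 0.24) had an adjusted p of 0.0538 by edgeR and stayed below the fold threshold. Across the alternatives its adjusted p ran from 0.00194 (edgeR with library sizes alone) to 1 (edgeR glmTreat), with 0.0406 by DESeq2 on the same genes, 0.0109 by edgeR when SCR replicate 3 was left out and 0.0343 when TFEB-KD replicate 3 was. The log2 fold change stayed between 0.094 and 0.22, so that STING1 was not called under any of them. Groups that do not overlap in CPM were found for 5 of the 10 members (RIGI, IFIH1, DHX58, STING1 and IRF7), against 55.4% of all tested genes.

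TBK1 (ENSG00000183735.11, chr12:64452090-64502114, plus strand) had 25.1, 24.5 and 25.4 CPM in SCR and 26.2, 26.8 and 24.4 CPM in TFEB-KD. The groups overlapped, and the log2 fold change of 0.042 had a 95% interval of -0.075 to 0.16 (SE 0.053, adjusted p = 0.549, edgeR). IRF3 (ENSG00000126456.16, chr19:49659569-49665875, minus strand) had 63.5, 61.6 and 65.4 CPM in SCR and 60.1, 58.8 and 61.6 CPM in TFEB-KD, where the lowest SCR library and the highest TFEB-KD library met. Its log2 fold change was -0.078 (SE 0.043, 95% interval -0.17 to 0.018, adjusted p = 0.172, edgeR), and the sign turned positive on the TPM scale and with library sizes alone. BCL2L12 overlaps IRF3 on the opposite strand, with 861 to 1140 estimated counts per library.

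IRF7 (ENSG00000185507.21, chr11:612553-615983, minus strand) had 6.82, 6.37 and 6.17 CPM in SCR and 3.55, 5.12 and 3.82 CPM in TFEB-KD. The groups did not overlap in CPM, although TFEB-KD replicate 2 lay closer to SCR than the other TFEB-KD libraries did. The mean was 64.5% of SCR (log2 fold change -0.64, SE 0.13, 95% interval -0.93 to -0.34, adjusted p = 0.00275, edgeR). On the length-scaled TPM values the groups overlapped, with 6.49, 5.83 and 4.99 TPM in SCR against 3.71, 5.67 and 3.83 TPM in TFEB-KD. The call was lost when counts were corrected for transcript length (log2 fold change -0.42, adjusted p = 0.123, edgeR with length offsets), which makes IRF7 the least certain of the 4.

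The ratio of counts to TPM gives the effective length of the transcripts that Salmon assigned in each library, and it shifts when the isoforms in use shift. For IRF7 this length in TFEB-KD was 0.872 of that in SCR, and for CGAS it was 1.12, with no overlap between groups for either gene. The share of all genes whose lengths did not overlap was not counted, so this lack of overlap is only a description. For IRF3 the ratio was 0.876 and for TLR3 0.779, both with overlapping groups, and the lengths of TLR3 differed up to 2.02-fold between libraries. RIGI (1.05), IFIH1 (0.948), DHX58 (1.01), MAVS (1.02), STING1 (0.999) and TBK1 (1.04) stayed near 1. Across all tested genes the median absolute log2 shift was 0.033 and the 90th percentile 0.20. IRF7 and IRF3 lay close to that percentile (log2 ratios of -0.20 and -0.19). TLR3 lay beyond it (-0.36), while CGAS (0.16) lay within it and RIGI well within it (0.075). On the TPM scale CGAS had 4.84, 4.44 and 4.16 TPM in SCR and 4.08, 3.73 and 4.11 TPM in TFEB-KD, groups that did not overlap, but limma on log2(TPM + 1) did not call it (log2 fold change -0.14, adjusted p = 0.253).

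**Figure D2:**
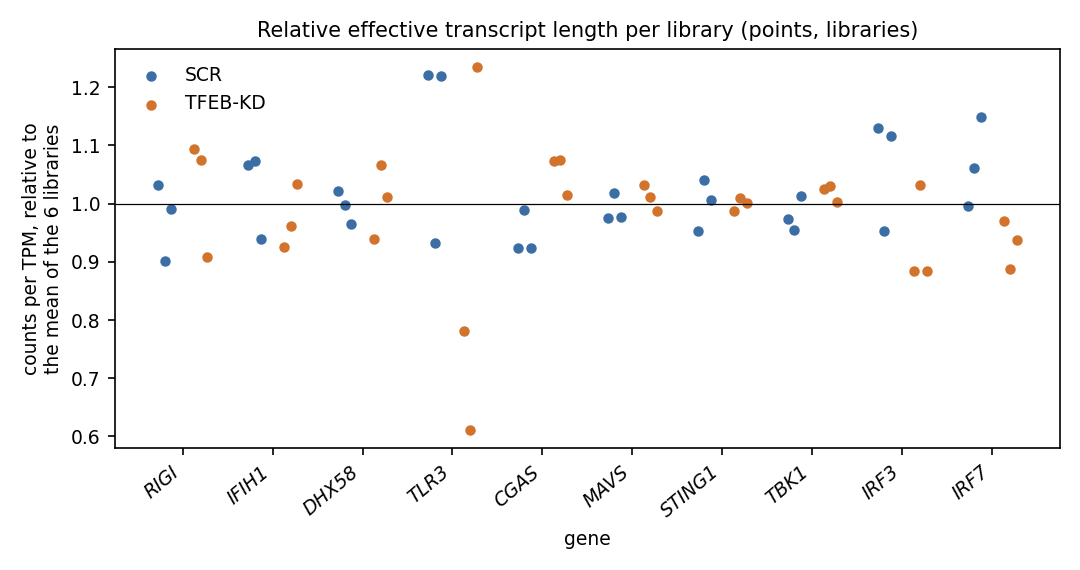
Effective transcript length per library, as counts per TPM divided by the mean of the 6 libraries (vertical axis, no unit), for each of the 10 genes, where points are libraries, blue is SCR and orange is TFEB-KD. IRF7 is shorter and CGAS longer in TFEB-KD with no overlap (the share of all genes with no overlap was not counted). TLR3 varies up to 2.02-fold between libraries, and MAVS, STING1 and TBK1 stay close to 1.

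Levels can be compared between genes only per length, that is in TPM. In SCR HDFs the order was STING1 (72.8 ± 2.60 TPM, mean ± SD, n = 3), IRF3 (67.7 ± 6.08), MAVS (17.0 ± 0.29), TBK1 (11.2 ± 0.38), IRF7 (5.77 ± 0.75), DHX58 (4.89 ± 0.32), CGAS (4.48 ± 0.34), RIGI (3.35 ± 0.37), IFIH1 (0.963 ± 0.071) and TLR3 (0.212 ± 0.072). The ranges of STING1 and IRF3, of IRF7 and DHX58, and of DHX58 and CGAS overlapped, whereas the other neighbours were apart. STING1 and IRF3 ranked above 89.2% and 88.5% of all tested genes by mean TPM, while RIGI ranked above 33.3%, IFIH1 above 17.8% and TLR3 above 6.21%. MAVS, TBK1 and IRF3 thus had more transcripts per length than any of the RNA receptors that feed them.

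In TFEB-KD HDFs the upper part of the order was kept, with STING1 at 82.3 ± 5.99 TPM, IRF3 at 75.6 ± 8.03, MAVS at 17.4 ± 0.52 and TBK1 at 11.5 ± 0.79. CGAS (3.97 ± 0.21 TPM) stood above DHX58 (3.45 ± 0.29) there, with ranges that were apart. RIGI dropped to 1.41 ± 0.13 TPM and IFIH1 to 0.488 ± 0.099 TPM, while TLR3 was at 0.243 ± 0.075. The summed TPM of RIGI, IFIH1 and DHX58 was 8.65, 9.50 and 9.46 in SCR and 5.68, 5.58 and 4.78 in TFEB-KD. Measured against their adaptor, MAVS transcripts per RIGI transcript numbered 5.47, 4.61 and 5.28 in SCR and 12.3, 11.3 and 13.7 in TFEB-KD, with no overlap between groups.

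**Figure D3:**
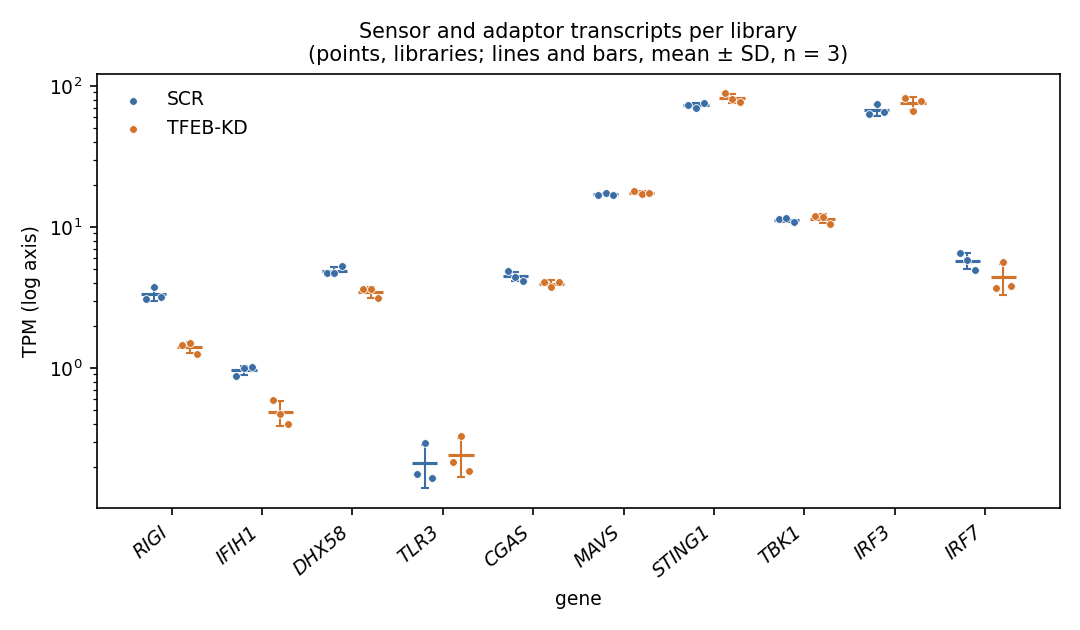
TPM of each of the 10 genes (vertical log axis) in the 3 SCR libraries (blue) and the 3 TFEB-KD libraries (orange), where points are libraries and lines with bars give the mean ± SD. RIGI, IFIH1 and DHX58 separate downward in TFEB-KD, IRF7 overlaps between groups on this scale, and STING1 and IRF3 lie highest, between 63.4 and 88.8 TPM.

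The genes that surround the sensors were grouped in 8 lists (163 genes, 141 of them tested). Of these 141 genes, 38 were called lower (27.0%, against 15.0% of all tested genes) and 5 higher (3.55%, against 9.99%). The 38 include OAS1 and OAS2, which passed the gene filter through SCR, where they were high. Their median log2 fold change was -0.12, and that of all genes 0.0033. Among genes induced through IRF3 and the interferon-activated complex ISGF3, 13 of 17 tested were lower (76.5%, against 15.0% of all tested genes) and 1 was higher (5.88%, against 9.99%), with a median log2 fold change of -1.10. IFIT1, which binds RNA that lacks the host cap methylation, fell from 42.4, 44.5 and 45.7 CPM in SCR to 3.07, 2.73 and 3.58 CPM in TFEB-KD (log2 fold change -3.81, SE 0.083, adjusted p = 1.76e-09, edgeR). MX1, a dynamin-like antiviral GTPase, fell by 2.50 on the log2 scale, and IFI6, an interferon-induced membrane protein, fell by 2.49. ISG20, an RNA exonuclease, was the gene that rose (0.684, 0.664 and 0.713 CPM against 1.19, 1.13 and 1.28 CPM, log2 fold change 0.80, SE 0.19, adjusted p = 0.00633, edgeR). IFIT1 was also picked out by the study on these libraries, so its direction is not independent evidence.

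**Figure D4:**
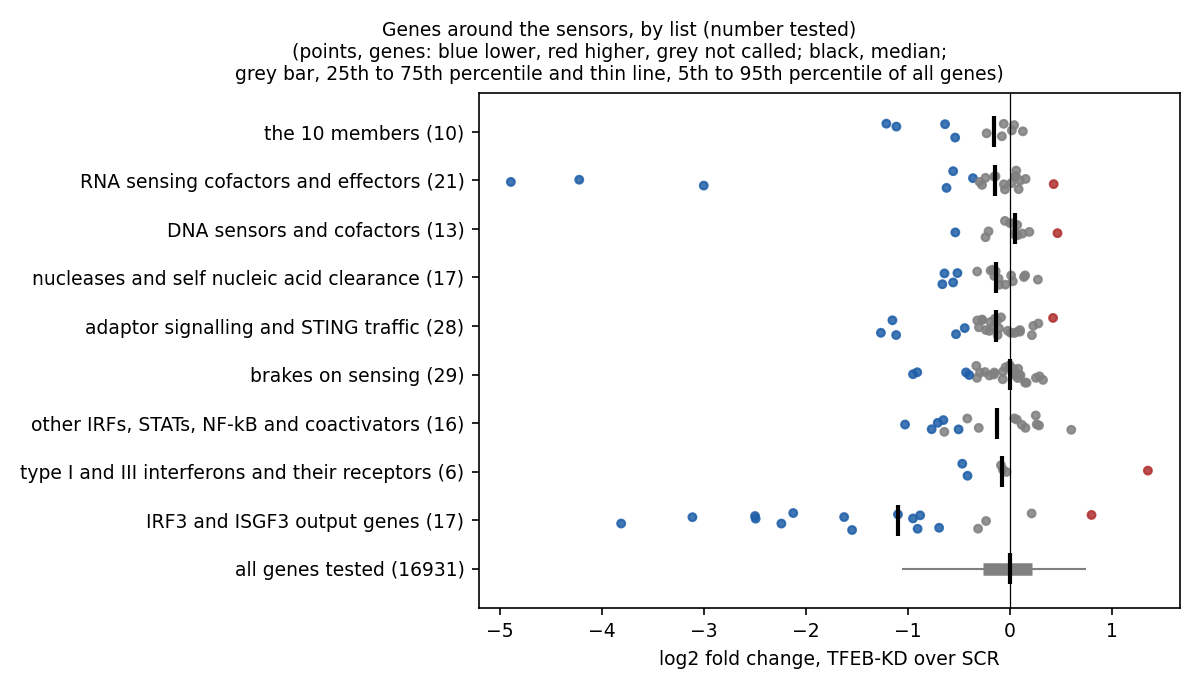
Log2 fold change of TFEB-KD over SCR (horizontal axis) for the 10 members, the 8 lists of surrounding genes and all 16931 tested genes, where points are genes (blue called lower, red called higher, grey not called), black marks are medians and the grey bar and thin line span the 25th to 75th and the 5th to 95th percentile of all genes. The output genes lie farthest to the left (median -1.10), and the DNA sensing list (median 0.050) lies around 0.

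On the RNA side, 6 of 21 tested cofactors and effectors were lower (28.6%, against 15.0% of all tested genes) and 1 was higher (4.76%, against 9.99%), with a median of -0.14. With 10 counts required in every library, only 3 genes of this list were lower, against 2250 of the 15363 genes then tested. In this list DESeq2 called 5 lower and limma on TPM 4, each with 1 higher, and 11 were lower and 2 higher at an unadjusted p under 0.05 by edgeR. The oligoadenylate synthetases are RNA-activated enzymes that make a second messenger of the antiviral response. OAS3 had 8.15, 9.51 and 10.3 CPM in SCR and 1.12, 1.01 and 1.32 CPM in TFEB-KD (log2 fold change -3.00, SE 0.13, adjusted p = 4.98e-08, edgeR). OAS2 fell by 4.22 and OAS1 by 4.89 on the log2 scale, the latter to at most 0.0754 CPM, where the fitted value depends on the prior count. Their TFEB-KD counts were 11, 7 and 12 (OAS2) and 1, 2 and 4 (OAS1). Both passed the gene filter through SCR, where they were high. No support is drawn from their folds, nor from the share of 28.6%, which counts them. The filter of 10 counts in every library removes both. Also lower, and named after their values were seen, were EIF2AK2 (PKR, the RNA-activated kinase that blocks translation, log2 fold change -0.62 on counts, with TPM groups that overlapped, at 13.5, 15.5 and 15.5 in SCR and 14.6, 11.8 and 12.1 in TFEB-KD) and TRIM25 (a ubiquitin ligase in RIG-I signalling, -0.36, just past the fold threshold). DHX36, a helicase of G-quadruplex structures, was the gene that rose (log2 fold change 0.43, SE 0.043, adjusted p = 1.83e-05, edgeR).

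On the DNA side, 1 of 13 tested sensors and cofactors was lower and 1 higher (7.69% each, against 15.0% and 9.99% of all tested genes, median 0.050). The list had 2 higher when SCR replicate 2 or TFEB-KD replicate 1 was left out, and by edgeR with no gene filter. TLR9, named after its value was seen, had too few counts to be tested, with 0, 0 and 0 in SCR and 6, 9 and 14 in TFEB-KD. UNC93B1, the chaperone that delivers nucleic acid-sensing Toll-like receptors, TLR3 included, to endosomes, fell from 20.6, 19.8 and 19.6 CPM to 13.4, 14.2 and 13.8 CPM (log2 fold change -0.53, SE 0.056, adjusted p = 2.48e-05, edgeR). RAD50, a DNA break repair protein that can also bind cytosolic DNA, rose by 0.47 on the log2 scale (SE 0.050, adjusted p = 2.80e-05, edgeR). IFI16, a DNA sensor that is inducible by interferon, had a log2 fold change of 0.0024 (adjusted p = 0.974, edgeR), a gene named after its value was seen. Whether the RNA and DNA lists differ from each other was not tested.

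Nucleases and other genes that clear self nucleic acid had 4 of 17 lower (23.5%, against 15.0% of all tested genes) and 0 higher (median -0.14), with 9 lower and 1 higher at an unadjusted p under 0.05 by edgeR. DESeq2 called 4 lower and 0 higher, whereas limma on TPM called 3 lower and 2 higher. Among those called lower were DNASE1L1 (a DNase I-like enzyme, log2 fold change -0.64), SAMHD1 (a dNTP hydrolase, -0.66) and ENPP1 (which degrades extracellular cyclic GMP-AMP, -0.51). Adaptor signalling and STING traffic had 5 of 28 lower (17.9%, close to the 15.0% of all tested genes) and 1 higher (3.57%, median -0.14), while 16 were lower and 6 higher at an unadjusted p under 0.05 by edgeR. DESeq2 gave 5 and 1 for this list, and limma on TPM 4 and 1. SURF4, a cargo receptor that returns STING1 to the endoplasmic reticulum, fell from 616, 617 and 631 CPM to 285, 284 and 291 CPM (log2 fold change -1.11, SE 0.039, adjusted p = 1.49e-08, edgeR). RHBDF2 (iRhom2, which assists STING1 trafficking) fell by 1.26, TRAF5 by 1.15, and, named after their values were seen, TRAF3 by 0.53 and IKBKE, the kinase related to TBK1, by 0.44. TBKBP1, a scaffold that binds TBK1, rose by 0.42 (SE 0.058, adjusted p = 0.000171, edgeR).

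Brakes on sensing had 4 of 29 lower (13.8%, below the 15.0% of all tested genes) and 0 higher, with a median log2 fold change of -0.00052. At an unadjusted p under 0.05 by edgeR these were 9 and 4, DESeq2 called 4 and 0, and limma on TPM called 3 and 0. Without TFEB-KD replicate 2, edgeR called 1 gene of this list higher. The genes called lower were SOCS3 (-0.91), the cytokine signalling inhibitor, USP18 (-0.95), which removes ISG15 and restrains the interferon receptor, TNIP1 (-0.40), a ubiquitin-binding inhibitor of NF-kB, and SOCS1 (-0.43), named after its value was seen. Among the other IRFs, STATs, NF-kB subunits and coactivators, 5 of 16 were lower (31.3%, against 15.0% of all tested genes) and 0 higher (median -0.13), a count that DESeq2 and limma on TPM also gave, against 7 lower and 4 higher at an unadjusted p under 0.05 by edgeR. Without SCR replicate 1, SCR replicate 3 or TFEB-KD replicate 3, edgeR called 1 gene of this list higher. RELB, an NF-kB subunit, had 27.9, 26.5 and 31.8 CPM in SCR and 14.1, 14.4 and 13.8 CPM in TFEB-KD (log2 fold change -1.03, SE 0.071, adjusted p = 1.13e-06, edgeR). NFKB2 fell by 0.65, as did NFKB1 by 0.71 and STAT2 by 0.50, both named after their values were seen.

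Interferon transcripts themselves were nearly absent. IFNB1, IFNA2, IFNK, IFNL1 and IFNL2 had 0 counts in all 6 libraries, which allows up to 3 counts, or 0.0554 to 0.0796 CPM, per library for counting error only. IFNW1 had 1 count in all libraries together and IFNL3 had 2, while IFNA1, which shares sequence with its paralogues, had 3.86 to 15.5 estimated counts per library. The exception was IFNE, an epithelial type I interferon, with 53, 27 and 36 counts in SCR and 80, 100 and 119 in TFEB-KD. It was higher in TFEB-KD (log2 fold change 1.35, SE 0.19, adjusted p = 0.000196, edgeR), opposite to the output genes. The receptor chains IFNAR2 (log2 fold change -0.41, with TPM groups that overlapped) and IL10RB (-0.47) were lower, IFNAR1 (-0.068), JAK1 (-0.087) and TYK2 (-0.033) were not called, and IFNLR1 had at most 3 counts in any library.

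By Pearson correlation of log2 CPM over the 6 libraries, among 13570 genes that averaged 1 CPM or more and had a count in each library, the genes most like RIGI were HEPH (r = 0.998), OLFML2B, USO1, CTSS and HERC2P9. The points share libraries and fall in the same 2 groups, so any gene with a tight drop in TFEB-KD scores high. Those most like CGAS were ZNF271P (r = 0.982), CENPL, ENSG00000280614, TARBP1 and NRM, none of which was called.

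The cells carried the markers of fibroblasts, and other lineages were close to absent. All 11 fibroblast markers were tested, VIM being the most abundant (4139 TPM), but their summed TPM was 11950, 11860 and 12098 in SCR and 9092, 9114 and 9130 in TFEB-KD, where 7 were called lower (63.6%, against 15.0% of all tested genes) and 2 higher (18.2%, against 9.99%). Among 10 leukocyte markers, 9 had a mean under 1 TPM and CLEC4C, which marks plasmacytoid dendritic cells, was at 0, while the sum of 90.8, 92.6 and 97.6 TPM in SCR and 144, 135 and 125 TPM in TFEB-KD was nearly all CD68, a lysosomal membrane protein. Endothelial markers summed to at most 0.469 TPM (TEK the highest) and melanocyte markers to at most 0.972 TPM (PMEL the highest, TYR at 0) in any library. The 6 keratinocyte markers summed to 62.0 to 71.5 TPM, nearly all KRT10. Mitochondrially encoded transcripts took 4.37%, 4.45% and 3.71% of TPM in SCR and 5.13%, 5.20% and 5.03% in TFEB-KD, and thus also separated the groups. The part of these differences in the sensor values was not tested.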

How the data were processed

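The members and lists were chosen with earlier results of these data known. Per the labels and the study's methods, RNA of the 6 libraries was sequenced as paired reads, trimmed with Trim Galore and processed with STAR 2.7.10a and Salmon 1.10.1 in an nf-core pipeline on hg38 GENCODE. The release and the use of strand are not given in the sources used here. The authors deposited Salmon's estimated counts with no scaling across libraries, and TPM values, which account for transcript length and sum alike in every library. The deposited table of the authors' own DESeq2 comparison (fold changes and p-values) was not used.

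Counts were rounded, filtered with filterByExpr, scaled by TMM and compared with edgeR 4.0.16 (quasi-likelihood test, R 4.3.3) over 16931 genes, with Benjamini-Hochberg adjustment. Each standard error is the absolute fold change (log2) over the root of F. DESeq2 1.42.0 and limma 3.58.1 served as alternatives. On simulated data for this comparison with 16931 genes, 77 of 100 genes changed by log2 1 and 95 of 100 changed by log2 2 were found, with 14 false calls. Only these genes were changed there, far fewer than the 7567 with an adjusted p under 0.05 by edgeR in the data. The rates for the real comparison may therefore differ. Coordinates come from GENCODE 44 (GRCh38), which held 62700 of the identifiers. Genes were named by a rule: all members, TFEB, in each list the 3 called genes of smallest adjusted p in each direction, every interferon gene, and the 5 genes most like RIGI and CGAS. Exceptions are marked, and a few items that the rule or the motif search gave are not reported here.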

Additional observations from a re-analysis of the deposited data

How the results depend on the processing

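The 6 fits that each left out 1 library kept 4 members lower and 0 higher, and over all genes gave 2294 to 2493 lower and 1582 to 1690 higher. The replicate numbers did not pair the libraries (correlations of same-numbered deviations -0.11, 0.040 and 0.020), and a replicate block left 4 members lower, with 2450 genes lower and 1595 higher. Members called lower dropped to 2 (RIGI and IFIH1) with an absolute log2 fold change over 1 (864 genes lower, 422 higher) and with glmTreat (1573 lower, 788 higher), where DHX58 had an adjusted p of 0.0940 and IRF7 0.0603 by edgeR. They were also 2 (RIGI and DHX58) by limma on log2(TPM + 1) with no gene filter (1403 lower, 1036 higher), where IFIH1 had an adjusted p of 0.0996, while with the filter limma called 1668 lower. IRF7 lost its call under all 3 limma settings (adjusted p 0.140, 0.146 and 0.326) and with length offsets (0.123, edgeR). With library sizes alone, the split over all genes became 2047 lower and 2497 higher (45.0% of calls lower, against 60.0%), as the median of all genes moved to 0.093, and the values of CGAS (0.029) and IRF3 (0.012) turned positive. IRF3 was also positive with length offsets (0.13) and by limma (0.16 in each setting), as was TLR3 (0.17 with offsets, 0.14 at a pseudocount of 0.1, 0.036 at 1). None of these reversed values was called. Among the lists, library sizes alone gave 2 lower and 1 higher for the brakes, 2 higher for adaptor signalling, 1 higher each for the nucleases and for the IRFs, STATs and NF-kB subunits, and 1 lower for interferon receptors, a count that length offsets and limma also gave. RNA cofactors had 3 lower, in place of 6, when 10 counts were required in every library. With glmTreat the interferon receptors had 0 lower and the brakes 2 lower. That setting also left 0 higher in each of the RNA cofactor, adaptor signalling and output lists. The output genes had 0 higher as well by limma on log2(TPM + 1) with no gene filter. Why calls differed between settings was not tested. TLR3 and IFIH1 had the fewest counts of the members, at most 49 and 129 in any library.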
